A study of Mus musculus with 42 samples.

Results

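The 33 genes described here mark microglia, the resident macrophages of the brain. They were set by gene symbol and not by a cut-off on measured values, but earlier results of these data were known. Each symbol was found once among 37410 genes measured in the lateral habenula (LHb) and once among 40905 genes measured in the other 5 brain regions. Bulk polyA RNA sequencing covered 42 mouse libraries in 14 groups of 3. The LHb libraries formed 4 groups, set by chronic restraint stress (CRS) and by immobility in the forced swim test (FST), in which a mouse placed in water is scored for the time it stops struggling. These were CRS mice with high immobility (above 110 s), CRS mice with low immobility (50 to 110 s), naive mice with high immobility (50 to 80 s) and naive mice with low immobility (below 50 s). In the lateral hypothalamus (LH), medial prefrontal cortex (mPFC), nucleus accumbens (NAc), ventral tegmental area (VTA) and ventral hippocampus (vHippo), 3 CRS libraries were set against 3 naive libraries. The mice had been through the FST 2 days before they were killed, naive groups included, so no group was free of that exposure. Strain, sex, age and any genetic modification are not given in the sources used here, and neither is whether replicates came from separate animals or pools, so p-values measure the spread between these libraries.

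Microglia arise from yolk sac precursors and depend on signalling through Csf1r, the receptor for the cytokines Csf1 and Il34. They survey neurons with fine processes guided by the nucleotide receptor P2ry12, read neuronal fractalkine through Cx3cr1, make the C1q subunits that start the classical complement pathway, and clear debris through receptors such as Trem2 and Mertk. Their identity rests on transcription factors that include PU.1 (encoded by Spi1), Irf8 and Sall1.

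All 33 genes had reads in every library and passed the filter on low counts in every comparison. Levels are given as FPKM, fragments scaled to exon length and library size, as the authors deposited them. In naive libraries the group means of single genes ran between 0.132 FPKM for Ptprc in high-immobility LHb and 34.1 FPKM for Ctss in NAc. Ctss, the lysosomal protease cathepsin S, was the most abundant of the 33 in 40 of 42 libraries. Ptprc, the pan-leukocyte phosphatase CD45, was the least abundant in 40 of 42. The FPKM values divide by the whole annotated exon length, which exceeded 1.5 times the longest coding transcript for 9 genes, most of all for Trem2, the lipid-sensing receptor, at 4.55 times. On the length of the longest coding transcript instead, all its exons counted, the lowest gene was Ptprc in 23 libraries, the nucleotide receptor gene P2ry6 in 17 and Spi1 in 2. The C1q genes encode the chains of one complex. They ranked C1qa above C1qb above C1qc in 36 libraries per exon length and in 26 per length of the longest coding transcript.

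Bulk tissue cannot separate fewer microglia from less RNA per microglial cell, and this holds for each value below. Genes of blood leukocytes summed to at most 2.8 FPKM in any library, while markers of neurons, astrocytes and oligodendrocytes were present throughout. Library depth lay between 56459734 and 79849567 counts in LHb and between 53143878 and 81384893 counts in the other regions. In LHb, 3 libraries (CRS high 1, CRS low 1 and naive low 1) had over 1000 FPKM of Ttr, a choroid plexus gene, and 4 libraries (CRS high 2 and 3, CRS low 2 and naive high 3) held pancreatic gene RNA. Outside LHb, 4 libraries stood apart in the genes described here or in genes of other cell types, namely mPFC naive 3, mPFC CRS 3, VTA naive 1 and vHippo CRS 2. They were picked after their values were seen, and results that rest on them are given with and without them. VTA naive 2 was not among these 4 and stays in every result given without them. Its red cell genes summed to 294 FPKM, beside at most 28.6 FPKM in the other libraries outside LHb. Mitochondrial genes took 14.7% of its counts, the highest share outside LHb, where the lowest was 5.22%.

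In LHb, naive mice with high immobility had lower microglia gene levels than naive mice with low immobility for most of the list, but only Csf1r passed the test. The 33 genes summed to 115 ± 6.196 FPKM in naive high libraries and 134 ± 8.58 FPKM in naive low libraries (SD, n = 3 each). Log2 fold changes, naive high over naive low, were negative for 27 of 33 genes with a median of -0.22, beside a median of -0.02 over all 23266 genes tested. By edgeR's quasi-likelihood test with Benjamini-Hochberg adjustment, 1 of 33 fell and none rose at an adjusted p below 0.05, while 3.07% of all genes tested were called, 0.387% falling and 2.69% rising. Unadjusted p was below 0.05 for 8 of 33. The 2 FPKM ranges did not overlap, with naive high below, for 11 genes (Cd68, Csf1r, Ctss, Cx3cr1, Gpr34, Inpp5d, Itgam, Itgb2, P2ry12, Sall1 and Trem2), which is 33.3% of the list beside 11.6% of all genes tested.

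Csf1r measured 8.24, 7.67 and 8.95 FPKM in CRS high libraries, 8.17, 8.303 and 8.599 FPKM in CRS low libraries, 6.98, 6.76 and 5.51 FPKM in naive high libraries and 9.44, 8.34 and 8.88 FPKM in naive low libraries. All 3 naive high libraries lay below each of the 9 others, and the 3 remaining groups overlapped. Against naive low, Csf1r fell by 0.43 on the log2 scale (SE 0.09, 95% interval -0.62 to -0.23, edgeR adjusted p = 0.0229). The call did not hold under 6 alternatives. The edgeR adjusted p was 0.098 without naive low 1, 0.0767 without naive low 3, 0.105 without naive high 3, 0.118 without the 3 libraries high in Ttr, 0.29 without the 4 libraries with pancreatic RNA and 0.0855 when only the 6 naive libraries were fitted. Its log2 fold change then stayed between -0.43 and -0.33. Between 2400 and 4455 reads per LHb library counted towards Csf1r, which overlaps Hmgxb3 on the opposite strand in the annotation of this table, and strand handling is not given in the sources used here. Hmgxb3 averaged 3.70 ± 0.08 FPKM in naive high and 3.89 ± 0.09 FPKM in naive low libraries (SD, n = 3 each).

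Among the other receptors, Gpr34, a lysophosphatidylserine receptor, measured 2.54, 2.31 and 2.31 FPKM in CRS high, 2.295, 3.41 and 3.08 FPKM in CRS low, 1.76, 2.15 and 1.99 FPKM in naive high and 2.87, 3.96 and 3.46 FPKM in naive low libraries. Again every naive high library lay below all 9 others, and the log2 difference from naive low was -0.76 (SE 0.19, edgeR adjusted p = 0.0509), just short of the threshold. P2ry12 measured 7.15, 6.88 and 7.21 FPKM in CRS high, 6.04, 6.75 and 7.47 FPKM in CRS low, 6.17, 6.71 and 7.17 FPKM in naive high and 7.43, 8.603 and 8.04 FPKM in naive low libraries. Its naive low libraries stood above all CRS high and all naive high ones and overlapped CRS low by a single library (log2 difference of naive high from naive low -0.22, SE 0.11, edgeR adjusted p = 0.355). Cx3cr1, the fractalkine receptor, measured 5.54, 4.64 and 5.56 FPKM in CRS high, 5.24, 5.89 and 5.68 FPKM in CRS low, 5.25, 5.57 and 4.33 FPKM in naive high and 6.13, 5.68 and 5.86 FPKM in naive low libraries. Naive low again exceeded CRS high and naive high without overlap, by amounts that did not pass the test. P2ry13 and P2ry6, 2 further nucleotide receptors, had log2 differences of 0.01 (SE 0.23) and -0.48 (SE 0.41).

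None of the C1q genes separated naive high from naive low. C1qa measured 15.3, 12.2 and 15.8 FPKM in CRS high, 14.6, 15.4 and 18.1 FPKM in CRS low, 12.9, 13.96 and 11.6 FPKM in naive high and 17.2, 13.5 and 16.8 FPKM in naive low libraries. C1qb measured 14.3, 9.197 and 13.4 FPKM in CRS high, 10.8, 12.6 and 15.5 FPKM in CRS low, 13.4, 10.9 and 10.7 FPKM in naive high and 12.7, 9.02 and 13.01 FPKM in naive low libraries. C1qc measured 7.82, 6.35 and 8.97 FPKM in CRS high, 6.29, 8.74 and 7.76 FPKM in CRS low, 7.38, 5.51 and 6.18 FPKM in naive high and 8.33, 6.05 and 7.1002 FPKM in naive low libraries. Naive high and naive low overlapped for all 3, with log2 differences of -0.26 (SE 0.14) for C1qa, 0.05 (SE 0.19) for C1qb and -0.13 (SE 0.16) for C1qc. Each 95% interval spanned 0. C1qa did lie higher in all CRS low than in all naive high libraries.

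Cd68, a lysosomal membrane glycoprotein of phagocytes, measured 1.53, 1.67 and 2.58 FPKM in CRS high, 2.44, 2.74 and 2.38 FPKM in CRS low, 1.799, 1.605 and 0.804 FPKM in naive high and 3.096, 3.02 and 3.27 FPKM in naive low libraries. The 3 naive low libraries exceeded all 9 others, and the log2 difference of naive high from naive low, -1.12 (SE 0.28, edgeR adjusted p = 0.0534), was the most negative of the 33. Sall1, the transcription factor gene most selective for microglia among brain macrophages, measured 4.16, 3.603 and 3.105 FPKM in CRS high, 3.85, 3.58 and 3.29 FPKM in CRS low, 2.75, 2.76 and 2.66 FPKM in naive high and 3.44, 3.67 and 3.95 FPKM in naive low libraries. Naive high was below all 9 others (log2 difference from naive low -0.39, SE 0.12, edgeR adjusted p = 0.118). The same order held for Itgam, the complement receptor subunit CD11b, at 2.77, 2.97 and 2.99 FPKM in CRS high, 2.64, 2.904 and 2.73 FPKM in CRS low, 2.18, 2.33 and 1.904 FPKM in naive high and 2.86, 2.82 and 2.65 FPKM in naive low libraries (log2 difference of naive high from naive low -0.33, SE 0.11, edgeR adjusted p = 0.145).

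Fcer1g, the signalling chain shared by Fc receptors, went the other way. It measured 2.18, 2.13 and 1.896 FPKM in CRS high, 1.65, 1.85 and 1.86 FPKM in CRS low, 2.81, 3.004 and 2.28 FPKM in naive high and 1.68, 1.24 and 2.01 FPKM in naive low libraries. All 3 naive high libraries exceeded the 9 others, with a log2 difference from naive low of 0.75 (SE 0.23, edgeR adjusted p = 0.11), and it was the only one of 33 whose naive high range lay wholly above naive low, beside 9.95% of all genes tested. Tyrobp, which encodes a separate adaptor of immune receptors, had a log2 difference of -0.02 (SE 0.23). DESeq2, run as an alternative, called 5 of the 33 between naive high and naive low, with Csf1r, Gpr34, Cd68 and Sall1 lower and Fcer1g higher (adjusted p between 0.00117 and 0.0449).

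**Figure D1:**
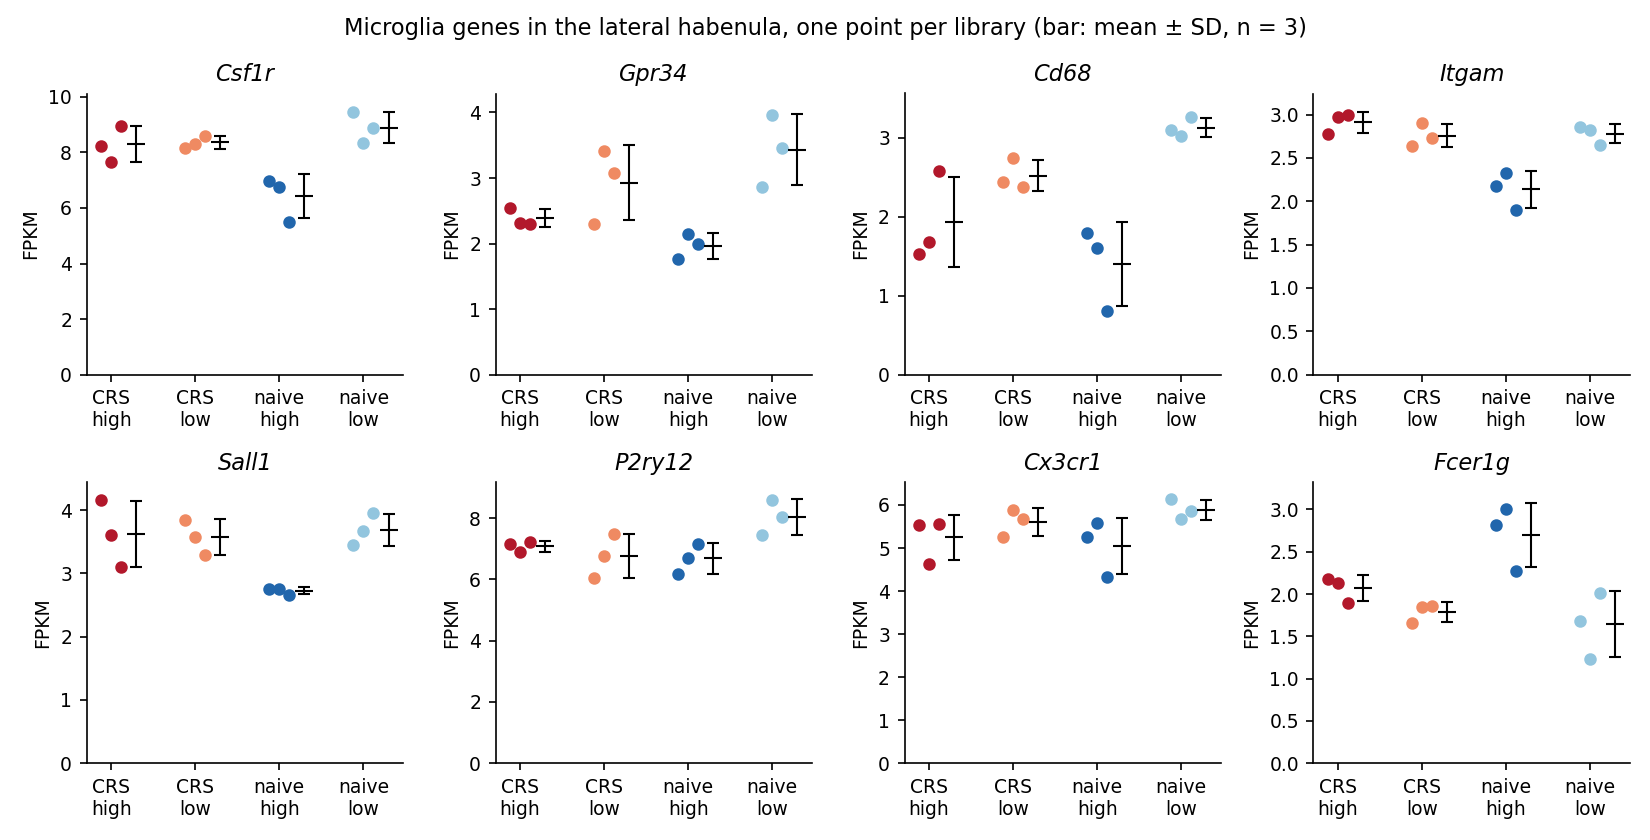
FPKM of 8 microglia genes in LHb, one panel per gene, with 1 point per library and the mean ± SD of 3 libraries beside each group. Naive high libraries sit below all others for Csf1r, Gpr34, Itgam and Sall1 and above all others for Fcer1g.

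Trem2 measured 0.932, 0.558 and 0.68 FPKM in CRS high, 0.5799, 0.4399 and 0.685 FPKM in CRS low, 0.663, 0.618 and 0.706 FPKM in naive high and 0.727, 0.781 and 0.8396 FPKM in naive low libraries. Naive high and CRS low each lay below naive low, and the log2 difference of naive high from naive low was -0.19 (SE 0.22). Tmem119, a surface protein used to tell microglia from other macrophages, measured 3.67, 3.15 and 4.79 FPKM in CRS high, 3.72, 4.94 and 4.701 FPKM in CRS low, 3.64, 3.68 and 3.84 FPKM in naive high and 5.32, 2.88 and 3.36 FPKM in naive low libraries. Its naive high libraries fell inside the naive low range (log2 difference -0.01, SE 0.22). Aif1, which encodes the actin-binding marker IBA1, measured 0.543, 0.706 and 1.22 FPKM in CRS high, 0.581, 0.457 and 1.31 FPKM in CRS low, 0.697, 0.692 and 0.712 FPKM in naive high and 0.441, 0.864 and 0.551 FPKM in naive low libraries. Between 46 and 133 reads per LHb library counted towards Aif1, and a single library of each CRS group, replicate 3, stood above all others.

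Spi1 measured 0.561, 0.663 and 0.461 FPKM in CRS high, 0.528, 0.937 and 0.549 FPKM in CRS low, 0.752, 0.368 and 0.437 FPKM in naive high and 0.6596, 0.406 and 0.951 FPKM in naive low libraries. Irf8 measured 0.388, 0.4004 and 0.3901 FPKM in CRS high, 0.417, 0.415 and 0.313 FPKM in CRS low, 0.435, 0.3098 and 0.286 FPKM in naive high and 0.481, 0.307 and 0.236 FPKM in naive low libraries. Neither gene separated naive high from naive low (log2 differences -0.34, SE 0.36, and 0.04, SE 0.26), and the intervals reached -1.12 and -0.53. Of the remaining adhesion and surface genes, Itgb2, the partner chain of Itgam, had a log2 difference of -0.56 (SE 0.25) and Laptm5, a lysosomal membrane protein of blood-lineage cells, one of -0.33 (SE 0.12), both past an unadjusted p of 0.05 and not past the adjusted threshold. Inpp5d, the lipid phosphatase SHIP1 that restrains immune receptor signalling, was lower in all 3 naive high libraries with a log2 difference of -0.36 (SE 0.17). Mertk, the receptor that recognises dying cells through Gas6 and Pros1, had a difference of -0.02 (SE 0.15). The other 10 genes had log2 differences between -0.38 for Olfml3, a secreted matrix protein, and 0.02 for Siglech, a sialic acid-binding lectin, and every 95% interval spanned 0. They include Fcgr3, Fcrls, Ctss and Ptprc, the selectin ligand gene Selplg, the toll-like receptor partner gene Ly86, the prostaglandin D synthase gene Hpgds and the tetraspanin gene Cd53.

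Genes of several other non-neuronal cell types were also lower in naive high LHb. Of 15 endothelial and mural genes, 15 had negative log2 differences and 6 fell, with a median of -0.62, and they summed to 77.9 to 102 FPKM in naive high libraries, against 111 to 161 FPKM in naive low libraries. The transporter gene Slco1a4 fell by 0.84 (edgeR adjusted p = 0.0164), the VEGF receptor gene Kdr by 1.23 (adjusted p = 0.0204) and the pericyte gene Rgs5 by 0.79 (adjusted p = 0.0204). Of 10 leptomeningeal genes, 9 were negative with a median of -1.97 and 1 fell, the retinoic acid synthesis gene Aldh1a2, by 1.97 (edgeR adjusted p = 0.0479). Leptomeningeal sums were 13.5 to 20.1 FPKM in naive high libraries and 21.7 to 141 FPKM in naive low libraries. Of 11 border macrophage genes, which mark the macrophages of the meninges and vessels, 11 were negative with a median of -1.09 and none passed the test (3 had an unadjusted p below 0.05). A further list of 30 microglia genes had 24 negative with a median of -0.22 and none past the test (3 at an unadjusted p below 0.05). Choroid plexus genes had a median of -3.46, pancreatic genes one of 10.77, astrocyte genes -0.21, oligodendrocyte genes 0.00 and neuronal genes 0.02. Choroid plexus sums were 8198, 151 and 148 FPKM in naive low 1, 2 and 3. Pancreatic sums were 664 FPKM in naive high 3 and at most 0.785 FPKM in the other naive libraries. Naive low 1, 2 and 3 held 141, 24.2 and 21.7 FPKM of leptomeningeal genes and 10.4, 4.29 and 4.13 FPKM of border macrophage genes. Medians of these lists were not computed without single libraries. The part of these other cell types in the microglia gene values was not tested. Without the 3 libraries high in Ttr, the median of the 33 was -0.13 with 23 negative, and without those holding pancreatic RNA it was -0.19 with 26 negative.

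None of the 33 genes passed the threshold in any LHb comparison that involved CRS libraries. The immobility limits of the classes differ between CRS and naive mice, so comparisons of CRS with naive libraries do not hold immobility equal. CRS high libraries summed to 126 ± 12.4 FPKM over the list and CRS low libraries to 132 ± 8.62 FPKM (SD, n = 3 each). The CRS high range overlapped both naive groups, while CRS low overlapped naive low and lay wholly above naive high. Averaged over both immobility classes, CRS over naive gave 0 of 33 called by edgeR (2 at an unadjusted p below 0.05, 0 called by DESeq2), beside 1.17% of all genes tested (1.11% higher and 0.0645% lower), with 21 positive and a median log2 fold change of 0.07. Itgam had the smallest p of the 33 with a difference of 0.21 (SE 0.08, edgeR adjusted p = 0.302). Between CRS high and CRS low, 0 of 33 and 0% of all genes were called (2 of 33 at an unadjusted p below 0.05, 0 by DESeq2). The 2 were Fcgr3, a low-affinity IgG receptor, at 1.85, 1.69 and 2.45 FPKM in CRS high and 3.32, 3.63 and 2.89 FPKM in CRS low libraries (log2 difference -0.70, SE 0.18, edgeR adjusted p = 1.0) and Fcrls, a microglial Fc receptor-like scavenger gene, with a difference of -0.39. The ranges did not overlap, CRS high below, for 4 of 33 genes (Fcgr3, Fcrls, Inpp5d and P2ry13), beside 4.38% of all genes. Fcer1g was the 1 gene with CRS high above, beside 3.43% of all genes.

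The remaining LHb contrasts share libraries with those above and their values are set side by side. CRS high over naive low gave 0 of 33 called (3 at an unadjusted p below 0.05, 0 by DESeq2) beside 3.67% of all genes (3.32% higher and 0.348% lower), 23 negative and a median of -0.05, with Cd68 at -0.69 and Gpr34 at -0.51. CRS low over naive low gave 0 of 33 called (1 at an unadjusted p below 0.05, 0 by DESeq2) beside 2.19% of all genes (2.11% higher and 0.0774% lower) and a median of -0.01. CRS high over naive high gave 0 of 33 called (6 at an unadjusted p below 0.05, 0 by DESeq2) beside 0% of all genes, 24 positive and a median of 0.11. CRS low over naive high gave 0 of 33 called (9 at an unadjusted p below 0.05, 0 by DESeq2) beside 0% of all genes, 26 positive and a median of 0.20. Csf1r was 0.34 higher on the log2 scale in CRS high than in naive high (SE 0.09, edgeR adjusted p = 0.845) and also 0.34 higher in CRS low than in naive high (SE 0.09, edgeR adjusted p = 0.644), without passing the test in either. The ranges did not overlap, CRS above, for 7 of 33 genes between CRS high and naive high (6.04% of all genes) and for 11 of 33 between CRS low and naive high (7.3% of all genes).

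Whether the immobility difference itself changed with stress was tested as an interaction. The log2 difference of high over low immobility in CRS, minus that in naive mice, gave 0 of 33 called by edgeR (4 at an unadjusted p below 0.05, 0 by DESeq2) beside 0.202% of all genes (0.0043% higher and 0.198% lower), with 24 positive and a median of 0.17. Csf1r had an interaction of 0.43 (SE 0.13, edgeR adjusted p = 0.33). By group means, naive high was the lowest of the 4 groups for 20 of 33 genes, beside 32.9% of all genes tested, and naive low was the highest for 16 of 33, beside 38.4%. CRS high was lowest for 5 and CRS low for 4.

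**Figure D2:**
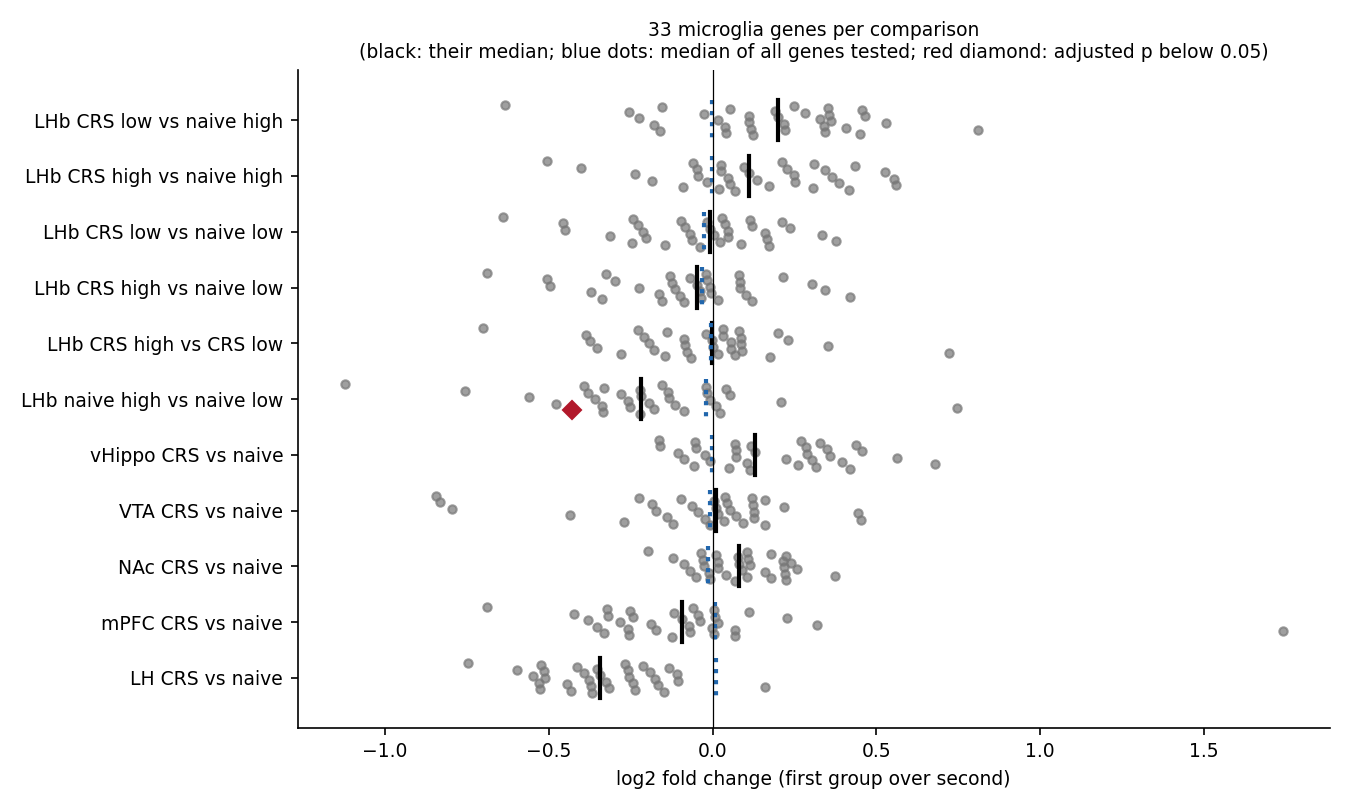
Log2 fold changes (first-named group over the second) of the 33 genes in each stress or immobility comparison, 1 point per gene, with a black bar at their median, a blue dotted line at the median of all genes tested and a red diamond for an edgeR adjusted p below 0.05. The naive high over naive low comparison in LHb holds the only diamond, Csf1r at -0.43, and the LH comparison has 32 of 33 points below 0 with a median of -0.34.

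Outside LHb, CRS called no microglia gene in any region. In LH the 33 genes lay lower in CRS as a body. They summed to 158 ± 6.70 FPKM in CRS libraries and 195 ± 8.78 FPKM in naive libraries (SD, n = 3 each), and the 2 ranges, 152 to 165 and 186 to 203 FPKM, did not overlap. Log2 fold changes, CRS over naive, were negative for 32 of 33 with a median of -0.34, beside 0.01 over all 20206 genes tested, and Mertk alone was positive at 0.16 (SE 0.18). None of the 33, and 0% of all genes, passed an edgeR adjusted p of 0.05 (7 of 33 at an unadjusted p below 0.05, 0 by DESeq2). The FPKM ranges did not overlap, CRS below, for 9 genes (C1qa, C1qb, C1qc, Ctss, Irf8, Ly86, Ptprc, Tmem119 and Trem2), which is 27.3% of the list beside 3.79% of all genes tested.

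Ctss measured 21.5, 23.4 and 25.9 FPKM in CRS and 33.3, 35.3 and 29.1 FPKM in naive LH libraries. C1qb measured 17.8, 15.004 and 15.6 FPKM in CRS and 23.1, 24.6 and 21.6 FPKM in naive LH libraries. Every CRS library was below every naive one for both, with log2 differences of -0.55 (SE 0.13, 95% interval -0.84 to -0.26) for Ctss and -0.60 (SE 0.14) for C1qb, each at an edgeR adjusted p of 0.424. C1qa measured 20.2, 15.01 and 19.4 FPKM in CRS and 20.99, 21.3 and 23.6 FPKM in naive LH libraries. C1qc measured 8.69, 8.54 and 8.98 FPKM in CRS and 10.01, 12.6 and 10.5 FPKM in naive LH libraries. All 3 C1q genes thus shared the non-overlap, and C1qc had a log2 difference of -0.42 (edgeR adjusted p = 0.456). Tmem119 measured 5.36, 3.52 and 3.905 FPKM in CRS and 5.63, 6.09 and 5.65 FPKM in naive LH libraries, and Trem2 1.11, 1.02 and 0.879 FPKM in CRS and 1.29, 1.205 and 1.21 FPKM in naive ones, again without overlap. Irf8 measured 0.367, 0.352 and 0.306 FPKM in CRS and 0.375, 0.494 and 0.518 FPKM in naive LH libraries, and the gap between its ranges was small beside the spread. The low-abundance gene Ptprc had the most negative difference, -0.75 (edgeR adjusted p = 0.464).

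Csf1r measured 11.5, 10.4 and 7.62 FPKM in CRS and 11.3, 8.93 and 12.8 FPKM in naive LH libraries. Cx3cr1 measured 7.5001, 6.15 and 4.71 FPKM in CRS and 9.22, 7.36 and 8.47 FPKM in naive LH libraries. P2ry12 measured 7.81, 11.95 and 9.94 FPKM in CRS and 13.6, 12.6 and 10.5 FPKM in naive LH libraries. The groups overlapped for these 3 receptors, although Cx3cr1 had an unadjusted p below 0.05 with a log2 difference of -0.53 (edgeR adjusted p = 0.489). Aif1 at 0.756, 1.297 and 1.25 FPKM in CRS and 0.9404, 1.81 and 0.907 FPKM in naive libraries also overlapped. So did Cd68 at 4.22, 2.59 and 2.76 FPKM in CRS and 4.39, 2.28 and 3.64 FPKM in naive libraries. Sall1 at 4.35, 4.34 and 3.28 FPKM in CRS and 5.69, 3.83 and 4.76 FPKM in naive libraries, and Spi1 at 0.613, 1.03 and 0.704 FPKM in CRS and 0.874, 1.18 and 0.951 FPKM in naive libraries, did as well.

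Leaving out each LH library in turn moved the median of the 33 between -0.43 and -0.22 and called none of them. Beside this, the further list of 30 microglia genes had 27 negative with a median of -0.34. Oligodendrocyte genes were lower in CRS LH by more, with 10 of 10 negative, a median of -1.22 and sums of 696 to 925 FPKM in CRS libraries, against 1032 to 2405 FPKM in naive libraries. Leptomeningeal genes had 9 of 10 negative with a median of -0.58, neuronal genes a median of -0.19 and astrocyte genes one of -0.08. Whether the mix of cell types in the dissected tissue had a part in the LH values was not tested.

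**Figure D3:**
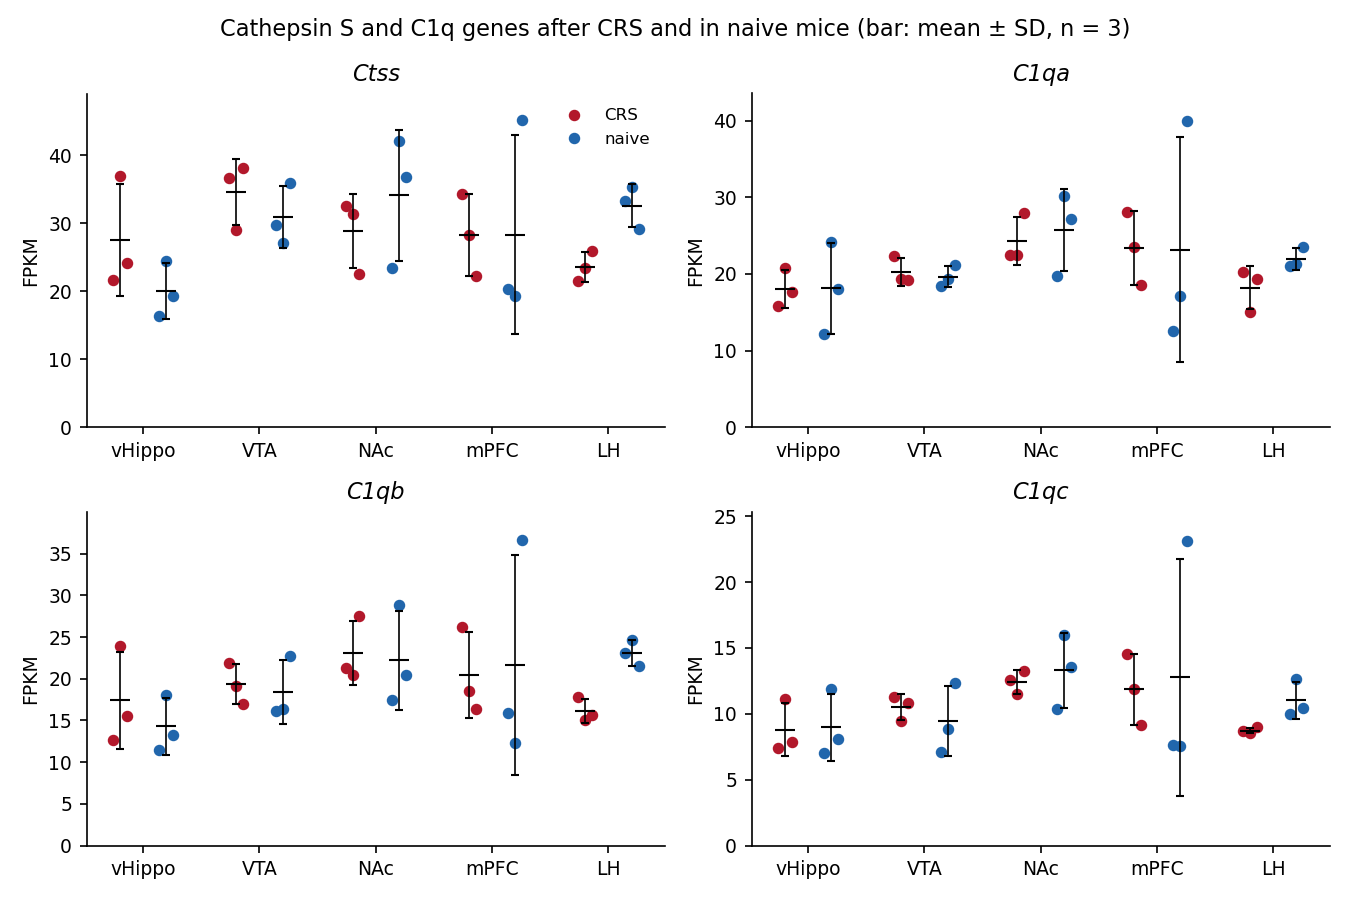
FPKM of Ctss, C1qa, C1qb and C1qc in CRS (red) and naive (blue) libraries of 5 regions, 1 point per library, with the mean ± SD of 3 libraries. The CRS and naive ranges are apart in LH for all 4 genes and overlap in vHippo, VTA, NAc and mPFC.

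In vHippo the CRS difference pointed upwards but depended on 1 library. The sum over the list was 181 ± 43.4 FPKM in CRS and 154 ± 36.3 FPKM in naive libraries (SD, n = 3 each). Log2 fold changes were positive for 24 of 33 with a median of 0.13, and 0 of 33 and 0% of all genes were called by edgeR (1 of 33 at an unadjusted p below 0.05, 0 by DESeq2). Without CRS 2, whose oligodendrocyte genes summed to 1293 FPKM beside 225 to 679 FPKM in the other vHippo libraries, the median was -0.04 with 19 of 33 negative, and without naive 2, the highest naive library, it was 0.40. CRS 2 was the highest vHippo library for 22 of 33 genes. P2ry12 measured 13.2, 18.8 and 13.1 FPKM in CRS and 9.75, 13.03 and 10.5 FPKM in naive libraries, with a log2 difference of 0.42 (SE 0.17, edgeR adjusted p = 0.75). It was 1 of 3 genes, with Cd53 and Tyrobp, whose CRS range lay above the naive range, beside 7.45% of all genes.

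Csf1r measured 7.29, 11.6 and 7.73 FPKM in CRS and 6.19, 11.7 and 7.08 FPKM in naive vHippo libraries. Cx3cr1 measured 7.11, 9.36 and 5.86 FPKM in CRS and 5.66, 8.58 and 6.04 FPKM in naive vHippo libraries. For both genes 1 naive library, naive 2, came close to or passed the highest CRS library. The same naive library was on top for C1qa and C1qc and next to the top for C1qb. C1qa measured 15.8, 20.7 and 17.6 FPKM in CRS and 12.2, 24.1 and 18 FPKM in naive libraries. C1qb measured 12.7, 23.9 and 15.6 FPKM in CRS and 11.5, 18.1 and 13.3 FPKM in naive libraries. C1qc measured 7.43, 11.1 and 7.85 FPKM in CRS and 7.03, 11.9 and 8.06 FPKM in naive libraries. None of the 3 separated the groups. Trem2 at 1.11, 1.46 and 0.755 FPKM in CRS and 0.6997, 1.72 and 1.09 FPKM in naive libraries overlapped too. So did Tmem119 at 4.53, 5.58 and 3.89 FPKM in CRS and 2.83, 6.16 and 4.17 FPKM in naive libraries, and Aif1 at 0.958, 1.11 and 1.34 FPKM in CRS and 0.543, 1.22 and 0.957 FPKM in naive libraries. Cd68 at 3.81, 5.16 and 3.301 FPKM in CRS and 4.04, 4.28 and 5.26 FPKM in naive libraries was the case in which a naive library was highest by a narrow margin. The transcription factor genes also overlapped, with Sall1 at 3.22, 4.88 and 3.15 FPKM in CRS and 3.12, 3.39 and 2.99 FPKM in naive libraries. Spi1 was at 0.803, 1.09 and 0.589 FPKM in CRS and 0.647, 1.003 and 0.952 FPKM in naive libraries. Irf8 was at 0.39, 0.515 and 0.434 FPKM in CRS and 0.442, 0.447 and 0.343 FPKM in naive libraries.

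In VTA the list showed no common direction. It summed to 180 ± 11.6 FPKM in CRS and 175 ± 21.02 FPKM in naive libraries (SD, n = 3 each), with a median log2 fold change of 0.01 and 0 of 33 and 0% of all genes called by edgeR (2 of 33 at an unadjusted p below 0.05, 0 by DESeq2). Fcer1g measured 2.21, 1.68 and 2.59 FPKM in CRS and 3.81, 3.11 and 4.38 FPKM in naive libraries without overlap (log2 difference -0.83, SE 0.28, edgeR adjusted p = 1.0). Mertk measured 4.55, 4.62 and 4.22 FPKM in CRS and 3.75, 3.23 and 2.54 FPKM in naive libraries, also without overlap (log2 difference 0.45, SE 0.19, edgeR adjusted p = 1.0). Ranges lay apart for 2 genes with CRS above (Mertk and P2ry6, beside 4.6% of all genes) and for 2 with CRS below (Cd53 and Fcer1g, beside 2.09%).

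Csf1r measured 8.49, 9.02 and 9.41 FPKM in CRS and 9.55, 7.06 and 9.59 FPKM in naive VTA libraries. Cx3cr1 measured 6.896, 6.52 and 5.98 FPKM in CRS and 6.2998, 4.87 and 7.51 FPKM in naive VTA libraries. P2ry12 measured 12.04, 9.898 and 15.4 FPKM in CRS and 10.3, 11.6 and 14.8 FPKM in naive VTA libraries. These receptors overlapped between groups, and so did the C1q genes. C1qa was at 22.4, 19.3 and 19.2 FPKM in CRS and 18.4, 19.3 and 21.1 FPKM in naive libraries. C1qb was at 21.8, 19.2 and 17.02 FPKM in CRS and 16.1, 16.3 and 22.8 FPKM in naive libraries. C1qc was at 11.3, 9.43 and 10.9 FPKM in CRS and 7.14, 8.82 and 12.4 FPKM in naive libraries. Surface and phagocytic markers likewise shared their ranges. Trem2 had 1.28, 0.976 and 1.41 FPKM in CRS and 1.08, 1.11 and 1.29 FPKM in naive libraries. Tmem119 had 4.904, 4.298 and 4.28 FPKM in CRS and 3.62, 4.54 and 6.18 FPKM in naive libraries. Aif1 had 0.869, 1.58 and 1.54 FPKM in CRS and 1.51, 1.199 and 1.11 FPKM in naive libraries. For Cd68, 3.3003, 2.55 and 3.11 FPKM in CRS libraries lay inside the wide naive range of 6.25, 1.47 and 2.33 FPKM, whose top was naive 1. Sall1 had 4.596, 5.91 and 4.89 FPKM in CRS and 5.51, 3.57 and 7.49 FPKM in naive libraries. Spi1 had 0.792, 0.377 and 0.809 FPKM in CRS and 0.664, 0.669 and 0.979 FPKM in naive libraries. The ranges of Irf8 overlapped as those of Sall1 and Spi1 did, at 0.402, 0.529 and 0.3501 FPKM in CRS and 0.451, 0.2501 and 0.419 FPKM in naive libraries.

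VTA naive 1 had the highest levels of several inflammatory transcripts among the 30 libraries of the 5 regions. Ccl3, a chemokine made by activated microglia, measured 34.6 FPKM there, and the next library had 0.427 FPKM. The cytokine gene Tnf measured 3.04 FPKM there (next 0.0833), the monocyte chemokine Ccl2 6.58 FPKM (next 0.567), the interleukin-1 receptor antagonist Il1rn 6.204 FPKM (next 0.153) and the itaconate-producing enzyme gene Acod1 5.23 FPKM (next 0.0473). Other transcripts were highest there but present elsewhere too, Spp1, osteopontin, at 240.1 FPKM (next 79.0) and the lysozyme gene Lyz2 at 20.98 FPKM (next 18.96, in mPFC naive 3). Of the 33 genes, Cd53 measured 7.54, 3.74 and 3.52 FPKM in the naive VTA libraries, and Ptprc 0.355, 0.158 and 0.189 FPKM, both highest in naive 1, as Cd68 was. These values describe 1 library and were not tested.

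NAc showed the closest CRS and naive sums, 227 ± 14.3 FPKM in CRS and 226 ± 37.0 FPKM in naive libraries (SD, n = 3 each). The median log2 fold change was 0.08, and 0 of 33 and 0% of all genes were called by edgeR (0 of 33 at an unadjusted p below 0.05, 0 by DESeq2). Inpp5d was the 1 gene whose ranges did not overlap, at 1.93, 1.597 and 1.999 FPKM in CRS and 1.44, 1.41 and 1.52 FPKM in naive libraries (log2 difference 0.37), beside 2.49% of all genes. Csf1r measured 11.4, 11.4 and 15.9 FPKM in CRS and 10.2, 15.2 and 13.5 FPKM in naive NAc libraries. Cx3cr1 measured 8.99, 9.15 and 10.5 FPKM in CRS and 8.75, 10.9 and 10.1 FPKM in naive NAc libraries. The ranges of CRS and naive libraries overlapped for both, and P2ry12 spanned 22.9, 15.9 and 13.7 FPKM in CRS and 14.3, 16.2 and 15.6 FPKM in naive libraries. C1qa had 22.5, 22.5 and 27.9 FPKM in CRS and 19.8, 30.2 and 27.2 FPKM in naive libraries. C1qb had 21.3, 20.4 and 27.5 FPKM in CRS and 17.4, 28.8 and 20.4 FPKM in naive libraries. The third subunit gene overlapped as these did, C1qc having 12.6, 11.5 and 13.2 FPKM in CRS and 10.4, 16.02 and 13.5 FPKM in naive libraries. Trem2 had 1.81, 1.68 and 1.37 FPKM in CRS and 1.49, 2.01 and 1.58 FPKM in naive libraries. Tmem119 had 5.11, 5.64 and 7.23 FPKM in CRS and 5.49, 6.44 and 5.25 FPKM in naive libraries. Neither differed beyond its spread. Aif1 had 1.27, 2.05 and 1.53 FPKM in CRS and 1.64, 1.87 and 1.77 FPKM in naive libraries. Cd68, at 6.52, 6.74 and 11.8 FPKM in CRS and 6.04, 8.12 and 8.22 FPKM in naive libraries, had its highest value of all 42 libraries in NAc CRS 3. Sall1 stood at 4.76, 4.85 and 6.92 FPKM in CRS and 5.07, 5.73 and 5.29 FPKM in naive libraries. Spi1 stood at 1.33, 0.844 and 0.764 FPKM in CRS and 0.801, 1.01 and 0.9746 FPKM in naive libraries. For Irf8 the groups overlapped as well, at 0.5197, 0.428 and 0.641 FPKM in CRS and 0.481, 0.514 and 0.628 FPKM in naive libraries.

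In mPFC the naive group held the widest spread of the study, and the direction of the CRS difference turned on it. Sums were 213 ± 13.1 FPKM in CRS and 219 ± 115 FPKM in naive libraries (SD, n = 3 each). Naive 3 summed to 352 FPKM, beside 145 to 228 FPKM in the other 5, and was the highest mPFC library for 31 of 33 genes. Its leptomeningeal genes summed to 155 FPKM and its endothelial genes to 167 FPKM. The median log2 fold change of the 33 was -0.09 with all 6 libraries, with 23 negative, and 0.30 without naive 3, with 4 negative. edgeR called 0 of 33 and 0% of all genes with all 6 libraries (0 of 33 at an unadjusted p below 0.05, 0 by DESeq2), and 0 of 33 without naive 3. No gene of the 33 had ranges that lay apart.

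Csf1r measured 9.65, 11.8 and 11.5 FPKM in CRS and 7.86, 9.83 and 21.4 FPKM in naive mPFC libraries. Cx3cr1 measured 6.14, 8.58 and 8.81 FPKM in CRS and 6.94, 6.63 and 14.7 FPKM in naive mPFC libraries. P2ry12 measured 19.7, 17.96 and 13.2 FPKM in CRS and 17.1, 9.09 and 24.8 FPKM in naive mPFC libraries. In each case naive 3 was the highest. C1qa was at 28.1, 23.5 and 18.6 FPKM in CRS and 12.5, 17.1 and 39.9 FPKM in naive libraries. C1qb was at 26.2, 18.6 and 16.4 FPKM in CRS and 15.9, 12.3 and 36.7 FPKM in naive libraries. C1qc, again topped by naive 3, was at 14.5, 11.9 and 9.17 FPKM in CRS and 7.66, 7.53 and 23.1 FPKM in naive libraries. Trem2, an exception, peaked in a CRS library, at 2.41, 1.49 and 1.403 FPKM in CRS and 1.27, 1.03 and 2.26 FPKM in naive libraries. Tmem119 was at 6.09, 5.84 and 5.06 FPKM in CRS and 4.47, 5.89 and 9.65 FPKM in naive libraries. Aif1 was at 2.201, 1.696 and 1.01 FPKM in CRS and 1.88, 1.34 and 3.46 FPKM in naive libraries. Cd68 was at 3.66, 4.1002 and 4.41 FPKM in CRS and 3.31, 2.62 and 9.37 FPKM in naive libraries. Naive 3 was highest for these as for Spi1, at 1.16, 0.797 and 0.723 FPKM in CRS and 1.101, 0.719 and 1.68 FPKM in naive libraries, and Irf8, at 0.504, 0.527 and 0.526 FPKM in CRS and 0.354, 0.471 and 0.707 FPKM in naive libraries.

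Sall1 in mPFC measured 2.43, 3.398 and 29.6 FPKM in CRS and 2.72, 2.29 and 5.28 FPKM in naive libraries. The value of CRS 3 was above that of every other of the 42 libraries and made Sall1 the most abundant of the 33 genes there. The other 32 genes were not raised in that library as a body, its sum of 203 FPKM being the lowest of the CRS mPFC group. The same library held olfactory bulb genes, with the mitral cell genes Cdhr1 at 87.3 FPKM (next library 3.58), Doc2g at 48.1 FPKM (next 1.51), Eomes at 18.9 FPKM (next 0.233) and Tbx21 at 6.30 FPKM (next 0.11). The olfactory neuron gene Omp measured 10.96 FPKM (next 0.712) and S100a5 15.1 FPKM (listed at 0 in the next). Whether cells other than microglia carried the Sall1 transcripts was not tested, and the log2 difference of 1.74 (SE 0.86, edgeR adjusted p = 1.0) for CRS over naive mPFC rests on that library.

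Across the 5 regions together, the mean CRS effect called 0 of 33 by edgeR, beside 0.0206% of all 24244 genes tested, 0.0124% higher and 0.00825% lower (1 of 33 at an unadjusted p below 0.05, and DESeq2 was not run on this comparison). The 1 was Mertk, 0.21 higher on the log2 scale (SE 0.08, edgeR adjusted p = 0.866). The median of the 33 was -0.05 with 22 negative, and 0.05 with 11 negative without the 4 libraries that stood apart. The test of whether the CRS effect differed between regions called 0 of 33 and 0% of all genes (0 of 33 at an unadjusted p below 0.05). The lower LH values are therefore not shown to differ from the CRS effect elsewhere.

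**Figure D4:**
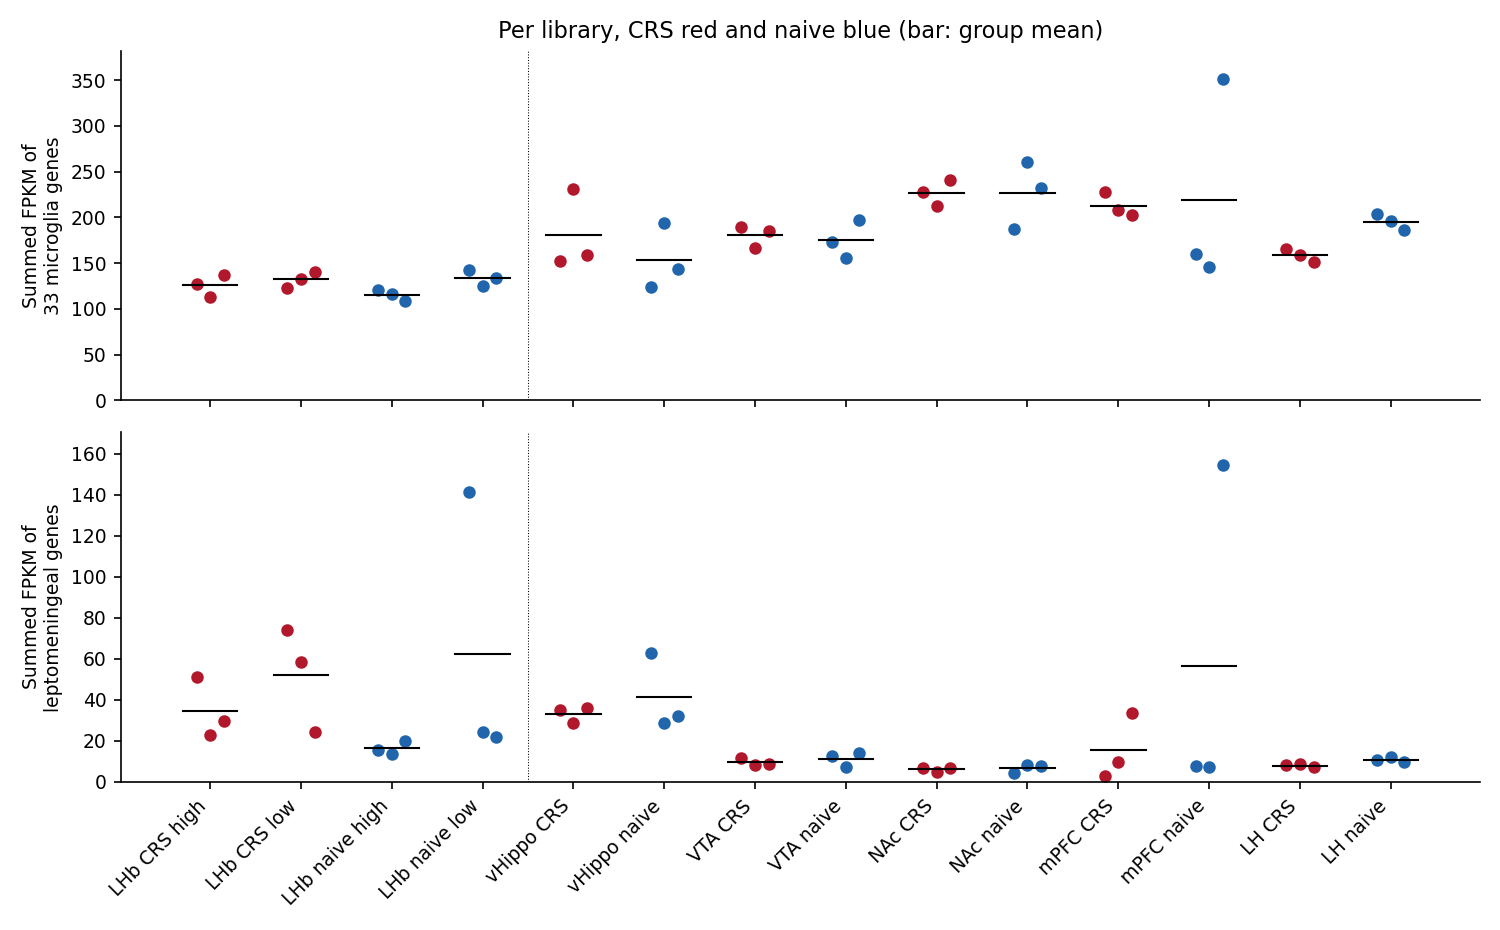
Summed FPKM of the 33 microglia genes (upper panel) and of 10 leptomeningeal genes (lower panel) in each of 42 libraries, CRS in red and naive in blue, with a bar at the group mean. mPFC naive 3 reaches 352 FPKM in the upper panel and 155 FPKM in the lower, and the LH groups do not overlap in the upper panel.

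Naive levels differed between regions for few of the 33. LHb is in a table of its own and enters these levels without a test. How often LHb was lowest over all genes was not computed, so its ranks have no such share beside them. A general difference in level between the 2 tables was not tested. By naive means over 6 regions, LHb was lowest for 26 of 33 genes, vHippo for 4 and VTA for 3, while mPFC was highest for 19, NAc for 8, VTA for 4 and LH for 2. Without mPFC naive 3, NAc was highest for 21, VTA for 6, LH for 4, vHippo for 2 and mPFC for 0, and LHb was lowest for 24, mPFC for 6 and VTA for 3. Leaving out all the libraries that stood apart gave the same 21 for NAc and 0 for mPFC. Within the 5 regions of one table, an edgeR F test over naive means called 3 of 33, beside 28.1% of all genes tested, so the share was below that of genes at large. They were Mertk (edgeR adjusted p = 1.94e-05), Inpp5d (adjusted p = 0.00474) and Fcrls (adjusted p = 0.00995). Without the 4 libraries that stood apart, 7 were called, Mertk, Cd68, Inpp5d, Itgam, Ctss, Sall1 and Ly86, and Fcrls was not (adjusted p = 0.0569).

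Mertk measured 7.196, 8.26 and 5.93 FPKM in naive vHippo, 3.75, 3.23 and 2.54 FPKM in VTA, 5.71, 7.42 and 7.58 FPKM in NAc, 6.89, 5.24 and 10.4 FPKM in mPFC and 4.03, 4.89 and 3.15 FPKM in LH libraries. Every VTA and LH library lay below every vHippo, NAc and mPFC library, and neighbours within each of these sets overlapped. Set against the mean of the other 4 regions, Mertk was higher in vHippo by 0.51 (SE 0.14, edgeR adjusted p = 0.0182) and in mPFC by 0.64 (SE 0.14, adjusted p = 0.0035), and lower in VTA (log2 difference -0.96, SE 0.16, adjusted p = 0.000125) and in LH (log2 difference -0.59, SE 0.16, adjusted p = 0.0179). The VTA call held with each naive library left out in turn. The vHippo call was lost without vHippo naive 1 (edgeR adjusted p = 0.0712) or naive 2 (adjusted p = 0.213), the mPFC call without mPFC naive 3 (adjusted p = 0.0928) and the LH call without LH naive 1 (adjusted p = 0.0686) or naive 3 (adjusted p = 0.163). Astrocytes express Mertk as well as microglia, which bulk libraries do not separate. Its ligand gene Gas6 was higher in naive VTA by 0.65 (SE 0.16, edgeR adjusted p = 0.00493).

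Inpp5d measured 0.613, 0.979 and 0.781 FPKM in naive vHippo, 1.204, 0.6097 and 1.04 FPKM in VTA, 1.44, 1.41 and 1.52 FPKM in NAc, 1.303, 1.49 and 1.805 FPKM in mPFC and 1.004, 0.8195 and 0.896 FPKM in LH libraries. NAc and mPFC libraries all exceeded those of vHippo, VTA and LH, and in mPFC the difference from the other regions was 0.68 (SE 0.18, edgeR adjusted p = 0.012), a call lost without mPFC naive 2 (adjusted p = 0.0859) or naive 3 (adjusted p = 0.06). Fcrls measured 4.59, 7.15 and 5.48 FPKM in naive vHippo, 2.83, 3.798 and 5.01 FPKM in VTA, 5.46, 7.12 and 8.62 FPKM in NAc, 6.25, 5.27 and 12.8 FPKM in mPFC and 5.12, 3.76 and 4.69 FPKM in LH libraries. In the order of their means, VTA, LH, vHippo, NAc and mPFC, neighbouring regions overlapped, with VTA lower than the rest by a log2 difference of -0.69 (SE 0.22, edgeR adjusted p = 0.0276) and mPFC higher by 0.69 (SE 0.20, adjusted p = 0.0195). These calls were lost in VTA without vHippo naive 2 (edgeR adjusted p = 0.0505), VTA naive 1 (adjusted p = 0.217) or VTA naive 2 (adjusted p = 0.109), and in mPFC without mPFC naive 3 (adjusted p = 0.43). Without the 4 libraries that stood apart, Fcrls was at a log2 difference of -0.42 in VTA (edgeR adjusted p = 0.164) and 0.23 in mPFC (adjusted p = 0.44), past the threshold in neither. Ctss measured 16.3, 24.4 and 19.3 FPKM in naive vHippo, 29.7, 27.04 and 35.9 FPKM in VTA, 23.4, 42.004 and 36.7 FPKM in NAc, 20.4, 19.3 and 45.1 FPKM in mPFC and 33.3, 35.3 and 29.1 FPKM in LH libraries. It was lower in vHippo than in the other regions by a log2 difference of -0.62 (SE 0.21, edgeR adjusted p = 0.0481), a call lost without any one of vHippo naive 1 or 3, VTA naive 1 or 3, NAc naive 2 or 3, mPFC naive 3, LH naive 1 or LH naive 2 (adjusted p between 0.0531 and 0.278), with no filter on low counts (adjusted p = 0.073) and with the replicate number as a block (adjusted p = 0.0533).

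Region by region, naive vHippo against the other 4 had 1 of 33 higher and 1 lower (Mertk and Ctss), beside 7.03% of all genes higher and 5.47% lower (12.5% in all), with 29 negative and a median log2 difference of -0.33. Naive VTA had 2 lower (Mertk and Fcrls) beside 8.53% of all genes lower, 9.93% higher and 18.5% in all, with 26 negative and a median of -0.24. Naive NAc had 0 called (3 at an unadjusted p below 0.05, DESeq2 not run) beside 6.97% of all genes (5.07% higher and 1.9% lower), with 30 positive and a median of 0.28. Naive mPFC had 4 higher, the above Mertk, Inpp5d and Fcrls and Aif1 (0.86, SE 0.28, edgeR adjusted p = 0.038), beside 8.38% of all genes higher, 5.38% lower and 13.8% in all, with 32 positive and a median of 0.34. Naive LH had 1 lower (Mertk) beside 4.33% of all genes lower, 4.68% higher and 9.01% in all, with a median of 0.00. The mPFC values rest on naive 3, without which 0 of 33 were called in mPFC and the median was -0.06 with 20 negative. The Aif1 call was also lost without any one of vHippo naive 1 or 3, VTA naive 2 or 3, NAc naive 2 or 3, mPFC naive 1, LH naive 1 or LH naive 3 (edgeR adjusted p between 0.0511 and 0.0716), with no filter on low counts (adjusted p = 0.0625) and with the replicate number as a block (adjusted p = 0.0563). Without the 4 libraries that stood apart, Aif1 was at a log2 difference of 0.51 in mPFC (edgeR adjusted p = 0.278). In mPFC, 9 of 10 leptomeningeal genes were also higher, with a median of 2.54, and their part in the microglia gene values was not tested. Without the 4 libraries that stood apart, NAc had Cd68 higher by 1.23 (edgeR adjusted p = 0.000649), Mertk by 0.50 (adjusted p = 0.016) and Inpp5d by 0.56 (adjusted p = 0.0388).

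**Figure D5:**
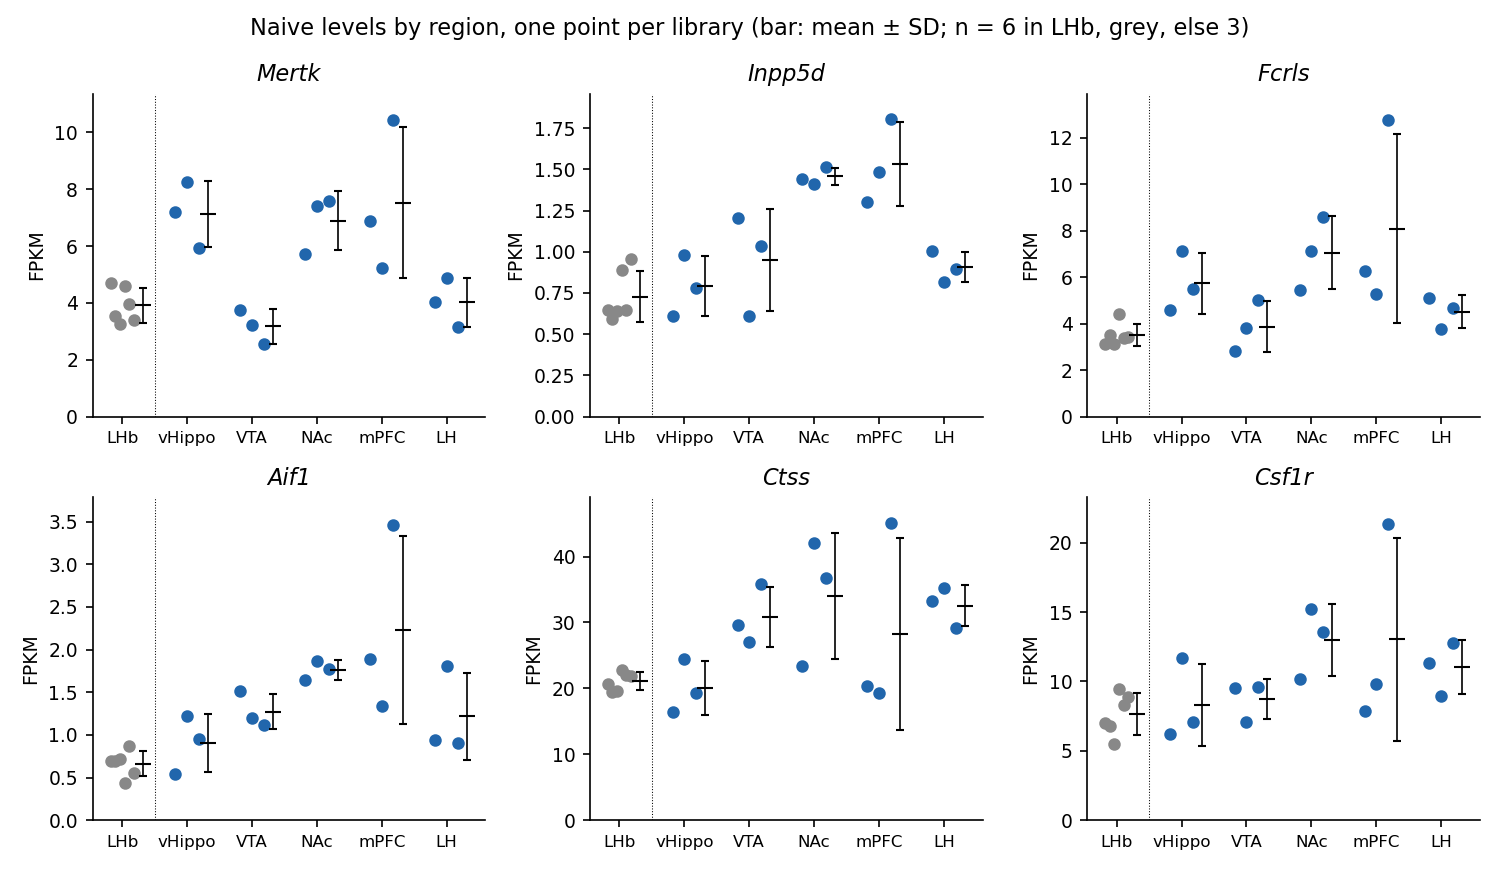
FPKM of 6 microglia genes in naive libraries by region, 1 point per library, with the mean ± SD (n = 6 in LHb, drawn in grey as a separate table, and 3 elsewhere). Mertk is lower in VTA and LH than in vHippo, NAc and mPFC, and mPFC naive 3 is the highest point for each gene shown.

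The ligands of the microglial receptors also differed between naive regions. Of 11 ligand and niche genes, 6 were called by the F test over naive regions, beside the 28.1% of all genes given above. Il34, the neuronal ligand of Csf1r, was higher in naive mPFC by 1.11 (edgeR adjusted p = 0.000349) and in NAc by 0.72 (adjusted p = 0.0264), and lower in VTA (log2 difference -1.19, adjusted p = 0.000498) and LH (-0.91, adjusted p = 0.00991). Cx3cl1, fractalkine, was higher in mPFC by 0.83 (adjusted p = 0.000424) and in NAc by 0.72 (adjusted p = 0.0027), and lower in VTA (-1.29, adjusted p = 8.96e-06) and LH (-0.64, adjusted p = 0.0137). Their receptor genes Csf1r and Cx3cr1 were not called by the same F test. Of 25 activation genes, 24 were tested and 10 called, and of 20 inflammation genes 19 were tested and 5 called. Naive VTA, with the library described above, had 8 activation genes and 4 inflammation genes higher and none lower, beside 9.93% of all genes higher. Only the 3 of smallest p in each list are named here. Of these, Ccl3, Spp1, Ccl2, Nos2 and Cd14 were highest in VTA naive 1, and Fth1 in VTA naive 3. The VTA counts of these lists were not made without VTA naive 1. Of 13 complement genes outside C1q, 6 were called, among them the synaptic complement inhibitor gene Csmd1, higher in mPFC by 0.94 (edgeR adjusted p = 0.000142) and lower in VTA (-0.91, adjusted p = 0.00044).

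Promoter sequence was examined for the core motif of PU.1, GAGGAA, on both strands, in RefSeq windows of 300 bases around gene starts (build GRCm38.p6). Of 33 genes, 24 matched the promoter table, with 29 windows. The core was found in 17 of 29 windows (58.6%), covering 16 genes, and in 9289 of all 32851 windows (28.3%). The composite of an ETS core and an IRF site, GGAA followed after 2 bases by GAAA, was found in 1 of 29 windows (3.45%), that of Cd68, and in 892 of all windows (2.71%). A composite match can share its GGAA with a core match. A match describes letters only. The windows of C1qb and C1qc are shown for genes that were lower together in CRS LH, and those of Inpp5d and Mertk for genes called between naive regions. Capitals mark each core match (TTCCTC where it lies on the other strand), and each sequence runs along its gene's strand.
C1qb, chr4:136886151-136886450, minus strand: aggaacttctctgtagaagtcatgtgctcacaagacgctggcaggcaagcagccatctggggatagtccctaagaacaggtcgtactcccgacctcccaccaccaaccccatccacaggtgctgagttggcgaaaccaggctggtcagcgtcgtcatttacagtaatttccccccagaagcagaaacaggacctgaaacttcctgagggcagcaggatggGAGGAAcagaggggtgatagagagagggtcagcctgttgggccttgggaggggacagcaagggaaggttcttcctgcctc
C1qc, chr4:136892865-136893164, minus strand: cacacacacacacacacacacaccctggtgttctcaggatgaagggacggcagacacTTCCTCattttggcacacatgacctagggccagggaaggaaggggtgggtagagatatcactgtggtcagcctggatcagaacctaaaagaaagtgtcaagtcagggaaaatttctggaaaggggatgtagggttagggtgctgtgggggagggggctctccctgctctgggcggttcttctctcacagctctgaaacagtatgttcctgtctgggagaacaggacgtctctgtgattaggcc
Inpp5d, chr1:87620062-87620361, plus strand: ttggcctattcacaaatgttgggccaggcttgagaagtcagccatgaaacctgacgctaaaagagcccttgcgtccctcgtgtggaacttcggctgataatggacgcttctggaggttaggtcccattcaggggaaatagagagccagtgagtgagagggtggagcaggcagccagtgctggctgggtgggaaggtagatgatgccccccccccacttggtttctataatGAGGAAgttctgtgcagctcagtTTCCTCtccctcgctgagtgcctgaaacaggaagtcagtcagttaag
Mertk, chr2:128698665-128698964, plus strand: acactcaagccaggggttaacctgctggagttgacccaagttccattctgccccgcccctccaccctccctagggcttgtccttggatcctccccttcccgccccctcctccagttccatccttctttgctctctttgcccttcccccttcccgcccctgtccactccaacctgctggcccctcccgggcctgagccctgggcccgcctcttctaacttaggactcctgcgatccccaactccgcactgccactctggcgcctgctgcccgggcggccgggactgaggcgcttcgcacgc
C1qb and C1qc held 1 match each, Inpp5d 2, and Mertk, the gene with the clearest regional difference, 0.

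Several of the 33 genes lie beside each other or share their span with other genes. C1qa, C1qb and C1qc lie beside each other on chromosome 4 (GRCm38, 136895917 to 136898803 for C1qa, 136880129 to 136886187 for C1qb and 136889804 to 136893065 for C1qc, all on the minus strand). P2ry12 and P2ry13 lie within Med12l and Gpr34 within Cask. The Cx3cr1 model in the table of the 5 regions (chromosome 9, 119901616 to 120068296) spans 8 other genes. The spans of the C1q genes do not overlap each other. The other overlaps are of whole gene spans, introns included, and overlap of exons was not computed. The exons of Cx3cr1 cover 4505 bases of its span. Strand handling is not given in the sources used here, so reads from any shared exon positions cannot be assigned with certainty.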

How the data were processed

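PolyA RNA was sequenced from 42 libraries of 6 mouse brain regions, and groups follow the labels. Per the submitters' processing notes, cutadapt 1.9, HISAT2 2.0.4, StringTie 1.3.4d, edgeR and the build GRCm39 were used, but the gene coordinates of the table of 5 regions are those of GRCm38, and the counting rule and strand setting are not given in the sources used here. The authors deposited a count and an FPKM value per gene and library, LHb in a table of its own, so no test crosses the tables. Of the table of 5 regions, 18 columns matched no sample and were not used.

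Counts were tested with edgeR 4.0.16 (TMM scaling, filterByExpr, quasi-likelihood F test, R 4.3.3), with Benjamini-Hochberg adjustment over all genes tested and a threshold of 0.05. The 12 LHb libraries shared one fit, each region's stress comparison used its 6 libraries, and comparisons across regions used all 30. DESeq2 1.42.0, another scaling (RLE), no filter on low counts, a smooth offset for transcript length, the replicate number as a block and leaving out each library were the alternatives. FPKM values are shown as levels and were not tested, and fold changes come from the counts. The tests were checked on simulated counts. No replicates agreed within sampling noise, so each library counted once. Counting error was not compared with the spread between libraries gene by gene. It weighs most on genes with few reads, such as Aif1 with 46 to 133 reads per LHb library.

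The 33 genes, the other lists and the tests were chosen with earlier results of these data known. Values in every library are given for genes past the threshold in LHb or in a stress comparison, and, whatever the result, for Csf1r, C1qa, C1qb, C1qc, P2ry12, Cx3cr1, Tmem119, Trem2, Aif1, Cd68, Sall1, Spi1 and Irf8. Other lists are given by counts and medians, with up to 3 genes each. Further genes named in single libraries were chosen after their values were seen. Library totals and the matched gene models were checked against GENCODE M21 and promoters taken from RefSeq.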

Additional observations from a re-analysis of the deposited data

How the results depend on the processing

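No alternative turned the direction of a named gene that had passed the threshold. Of 33 genes, naive high against naive low LHb called 1 with all 12 libraries, 5 with DESeq2, 0 when only the 6 naive libraries were fitted, 0 without the libraries holding pancreatic RNA and 0 to 1 with each library left out, being 0 without naive low 1, naive low 3 or naive high 3. Without the libraries high in Ttr the 1 gene called was Gpr34, not Csf1r. The naive five-region test called 3, and 3 to 5 with each library left out (5 without VTA naive 1, mPFC naive 2 or mPFC naive 3). Against the other regions, naive vHippo called 2, 1 without the filter on low counts and 0 to 3 with each library left out. Naive VTA called 2, and 2 to 4 with each library left out (4 without mPFC naive 3). Naive NAc called 0, and 0 to 2 with each library left out (1 without VTA naive 1, 2 without mPFC naive 3). Naive mPFC called 4, and 0 to 5 with each library left out. Naive LH called 1, and 0 to 1 with each library left out (0 without LH naive 1 or LH naive 3). Without the 4 libraries that stood apart, an alternative chosen after seeing the data, the naive five-region test called 7, VTA 4, NAc 3, mPFC 3 and LH 1. All stress comparisons and the other LHb contrasts called 0 of 33 under every alternative run. The cause of these shifts was not tested.

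Deviations of same-numbered libraries of different groups had correlations between -0.22 and 0.25, with 5 of 18 LHb pairs above 0.1. Differently numbered pairs were not set beside them, so these values cannot decide whether the numbers pair the samples. The LHb libraries high in Ttr (CRS high 1, CRS low 1 and naive low 1) all carry the number 1, and their correlations were 0.15, 0.21 and 0.25. With the replicate number as a block, naive high against naive low LHb called 2 (Csf1r and Gpr34), naive vHippo 1 and naive mPFC 3, and the other comparisons kept their counts. In the 30-library fit the block joined stress and replicate number, so the mean CRS effect over 5 regions could not be fitted with it.

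Counts over all genes moved further. LHb CRS against naive called 273 genes and 0 to 749 under other settings, naive high against naive low 715 (138 to 1627), CRS high against naive low 854 (57 to 1614), CRS low against naive low 510 (107 to 1036), the interaction 47 (2 to 341), and LH CRS against naive 0 (0 to 332, and up to 760 without LH naive 3). DESeq2 called up to 44 genes in the comparisons where edgeR called 0 outside LH. Depth limits the low genes most, P2ry6 having 27 to 151 reads per LHb library.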
